A study of Homo sapiens with 6 samples.

Results

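The genes described here are the 37 carried by the mitochondrial chromosome, chosen as every gene that the count table places on that chromosome, out of 58735 genes listed. They comprise 13 messenger RNA genes, 2 ribosomal RNA genes and 22 transfer RNA genes, and each class is reported apart. RNA was sequenced from H2452, an established human pleural mesothelioma cell line, in 3 libraries from cells given a scrambled control sgRNA (sgCtrl, genotype WT) and 3 from cells given an NF2-targeting sgRNA (sgNF2-1, genotype NF2-KO). Both groups were grown in RPMI-1640 with serum and carried the same lentiviral Cas9 vector, whose mCherry marker was used to sort the infected cells, so each group is a sorted population rather than a stated clone, and 1 sgRNA represents the knockout. Nothing in the labels says whether the libraries of a group came from separate cultures. The study describes its data in general as biological replicates, without saying how the cells of these libraries were grown apart. The p-values therefore measure the spread between these libraries, which may be technical.

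The human mitochondrial genome is a small circular DNA in many copies per cell. It encodes core subunits of respiratory complexes I, III and IV and of the ATP synthase (complex V), together with the ribosomal and transfer RNAs that translate them inside the organelle. Each strand is copied by the mitochondrial RNA polymerase into long transcripts that span many genes. Transfer RNAs lie between most of the other genes, and their excision by RNase P and ELAC2 frees the messenger and ribosomal RNAs, most of which then receive a short poly(A) tail. Every other subunit of these complexes, and every protein that copies, processes or translates mitochondrial RNA, is encoded in the nucleus.

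Several of these genes share bases, which decides what a count can mean. MT-ATP8 and MT-ATP6, subunits of the ATP synthase, share 46 bases (shown in capitals, chrM:8517-8582, plus strand), and MT-ND4L and MT-ND4, subunits of complex I, share 7 (capitals, chrM:10740-10786, plus strand). MT-ATP6 and MT-CO3 share a base as well, at chrM:9207. The sequences are those of the GENCODE 29 transcripts (GRCh38), and all 37 genes of the count table have the same start, end and strand there.
MT-ATP8 and MT-ATP6 overlap: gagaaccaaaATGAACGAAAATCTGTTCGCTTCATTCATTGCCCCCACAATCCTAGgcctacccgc
MT-ND4L and MT-ND4 overlap: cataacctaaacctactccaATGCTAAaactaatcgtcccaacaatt
A read on shared bases belongs to both genes of a pair, and the processing notes do not say how such reads were counted.

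The 3' ends of the messenger RNA genes also differ. In 6 of the 13 the annotated gene stops short of a full codon, and the stop codon is completed only when the poly(A) tail is added. MT-ATP6 is annotated with a full last codon, but its last base, at chrM:9207, is also the first base of MT-CO3. The last 30 bases are shown for MT-CYB and MT-ND2, whose lone final T is in capitals, and for MT-CO1 and MT-ND5, which end on a complete codon (capitals). These 4 genes carry the largest and smallest fold changes among the messenger RNAs below.
MT-CYB last 30 bases: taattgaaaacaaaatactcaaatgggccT
MT-ND2 last 30 bases: ctatctccccttttatactaataatcttaT
MT-CO1 last 30 bases: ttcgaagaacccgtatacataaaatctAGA
MT-ND5 last 30 bases: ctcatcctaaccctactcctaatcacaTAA

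Total counts ranged from 14782423 to 17416463 per library. NF2, the targeted gene, had 1162, 1197 and 1025 counts in sgCtrl and 692, 802 and 590 in sgNF2-1, so the groups did not overlap and its transcript was still present in sgNF2-1. The mesothelial markers MSLN, PDPN, KRT8, KRT18 and KRT19 were counted in every library, with a lowest count of 390, CALB2, WT1 and UPK3B had 16 to 176 counts, and KRT5 had at most 3. Of the 9, edgeR tested 8 and called MSLN and KRT18 higher in sgNF2-1, with log2 fold changes of 0.66 and 0.28 (adjusted p = 1.7e-05 and 0.017), and PDPN, WT1 and KRT19 lower, with -1.28, -1.04 and -0.94 (adjusted p = 8.3e-10, 6.8e-05 and 3.6e-08). Their summed level was 3258 to 3674 CPM in sgCtrl and 2858 to 3509 CPM in sgNF2-1, with overlap, and their part in the mitochondrial results was not tested. Of the markers of other cells, the leukocyte gene PTPRC was at 0 in all 6 libraries, EPCAM had at most 9 counts and CDH5 at most 24, while PECAM1 had 83 to 117 in sgCtrl and 16 to 26 in sgNF2-1. No library was a copy of another, since a chi-square test of counts over genes gave between 5.17 and 12.6 per degree of freedom for libraries of the same group, where counting error alone gives about 1. One sgCtrl library stood apart for RN7SL2, a signal recognition particle RNA without a poly(A) tail. It had 1116, 1325 and 123 counts in sgCtrl and 243, 176 and 176 in sgNF2-1 (log2 fold change -2.09, edgeR adjusted p = 0.0002), and RN7SL1, RN7SK, RMRP and RPPH1 were at 0 in every library.

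The mitochondrial genes took up a few percent of each library. Their share of all counts was 2.65, 3.12 and 3.69% in sgCtrl and 3.67, 4.67 and 4.01% in sgNF2-1. The share was higher in sgNF2-1 on average, but sgCtrl 3 lay above sgNF2-1 1, so the groups overlapped. The means were 3.15% ± 0.519 and 4.11% ± 0.507 (SD, n = 3), a difference of 0.963 percentage points with a standard error of 0.419 (two-sided exact permutation test, p = 0.2, where 3 libraries against 3 allow no p below 0.1). In bulk RNA such a share cannot tell more mitochondrial RNA per cell from less nuclear RNA per cell.

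Most of these counts fell on messenger RNA genes. Their share was 2.10, 2.48 and 2.81% in sgCtrl and 2.81, 3.68 and 3.08% in sgNF2-1 (difference 0.725 percentage points, standard error 0.328, exact permutation p = 0.1). The groups were separated only by the third decimal, between sgCtrl 3 and sgNF2-1 1. The ribosomal RNA genes took 0.528, 0.609 and 0.840% in sgCtrl and 0.822, 0.953 and 0.892% in sgNF2-1 (exact permutation p = 0.2), and the transfer RNA genes took between 0.0239 and 0.0393% of a library (exact permutation p = 0.2). Both of these classes overlapped between the groups. The sources used here do not say how RNA was selected for the libraries, so the share of one class beside another is a property of these libraries and is read only between the groups.

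**Figure D1:**
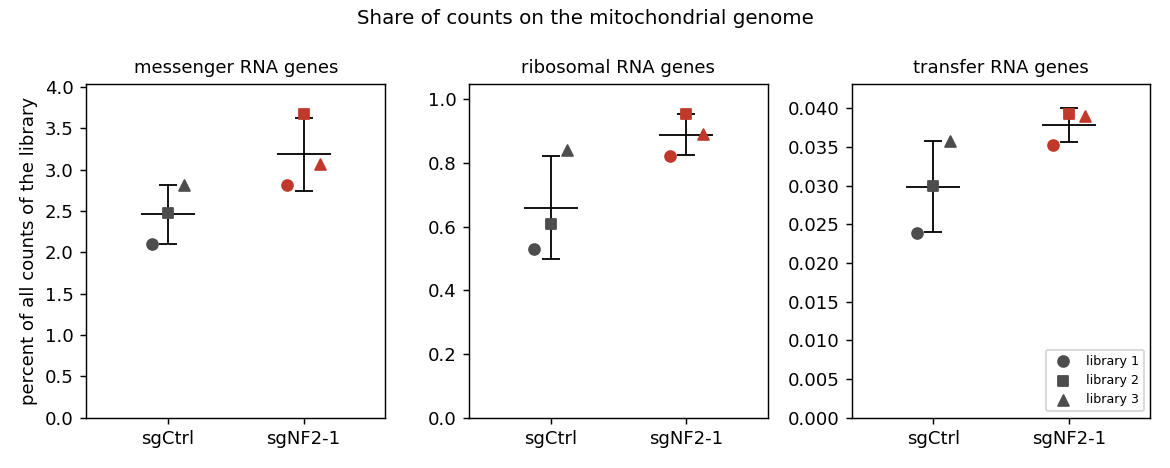
Percent of each library's counts on the messenger, ribosomal and transfer RNA genes of the mitochondrial genome (vertical axes, each from 0) in sgCtrl and sgNF2-1. Each symbol is 1 library, the horizontal line the mean and the bar 1 SD of 3 libraries; in each class sgCtrl 3 lies beside the lowest sgNF2-1 library.

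All 13 messenger RNA genes had a fold change above 0 in sgNF2-1, and edgeR's quasi-likelihood test called 10 of them higher (adjusted p under 0.05). None of the 13 was called lower. For comparison, 17.7% of the 14179 tested genes were called higher by the same rule. The median log2 fold change of the 13 was 0.43, with a range from 0.20 to 0.83, beside a median of -0.0026 over all tested genes. With the limits of the study's methods, an unadjusted p under 0.05 and a log2 fold change above 0.5, only MT-ND2 and MT-CYB were called, where 9.22% of all tested genes were called higher. Every sgNF2-1 library exceeded every sgCtrl library for 5 of the 13 genes, a separation seen for 23.2% of all tested genes. DESeq2 called 5 of the 13, beside 16.1% of the genes it tested, and these were the same 5 genes whose groups did not overlap.

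The libraries moved together across these genes. sgCtrl 1 had the lowest level of all 6 libraries for 13 of 13 messenger RNAs, and sgNF2-1 2 had the highest for 11 of 13 and sgNF2-1 3 for the other 2. The 13 genes are therefore no set of independent observations. Without sgCtrl 1 the number called higher was 6, and without sgNF2-1 2 it was 5. MT-ND1, MT-ATP6 and MT-ND4L lost their call when either of these libraries was left out (edgeR adjusted p from 0.050 to 0.15), MT-ND4 lost it without sgNF2-1 2 (0.056), and MT-ND6 lost it without sgCtrl 1, sgCtrl 2 or sgNF2-1 2 (0.066, 0.068 and 0.27). MT-CYB, MT-ND2, MT-ND3, MT-CO2 and MT-CO3 were called whichever library was left out. Leaving out sgCtrl 3, the library that stood apart for RN7SL2, gave 12, and the part of RN7SL2 in these results was not tested.

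MT-CYB, which encodes cytochrome b, the only mitochondrially encoded subunit of complex III (ENSG00000198727, chrM:14747-15887, plus strand), changed most. Its level was 1108, 1407 and 1738 CPM in sgCtrl and 2130, 2958 and 2470 CPM in sgNF2-1, where CPM scales a gene's count to the TMM-adjusted total of its library. All 3 sgNF2-1 libraries lay above all 3 sgCtrl libraries. The log2 fold change was 0.83 (edgeR adjusted p = 1.3e-05, standard error 0.13), which put the sgNF2-1 mean at 178% of the sgCtrl mean.

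Complex I passes electrons from NADH to ubiquinone and has 7 subunits encoded here. Of these, 6 were called higher, beside 17.7% of all tested genes, with a median log2 fold change of 0.43 over the 7. The calls of MT-ND1, MT-ND4, MT-ND4L and MT-ND6 depended on single libraries, as given above. MT-ND2 (ENSG00000198763, chrM:4470-5511, plus strand) led them, at 998, 1213 and 1479 CPM in sgCtrl and 1755, 2487 and 2069 CPM in sgNF2-1. The log2 fold change of MT-ND2 was 0.77 (edgeR adjusted p = 2.1e-05, standard error 0.12), and the groups did not overlap. MT-ND3 had 579.5, 642 and 729 CPM in sgCtrl against 791, 925 and 983 CPM in sgNF2-1, also without overlap, a log2 fold change of 0.47 (standard error 0.10, edgeR adjusted p = 0.00047). MT-ND4 rose by a log2 fold change of 0.47, MT-ND1 by 0.43 and MT-ND4L by 0.42 (edgeR adjusted p = 0.0039, 0.0058 and 0.016), each with sgCtrl 3 above sgNF2-1 1.

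The smallest complex I fold changes were those of MT-ND6 and MT-ND5. MT-ND6 (ENSG00000198695, chrM:14149-14673) is the only messenger RNA gene on the minus strand, and its 3 sgCtrl libraries lay close together, at 385, 388 and 401 CPM. The sgNF2-1 libraries had 407, 556 and 462 CPM, all above them, and the log2 fold change was 0.28 (standard error 0.09, edgeR adjusted p = 0.024). MT-ND5 had 653, 859 and 909.7 CPM in sgCtrl and 867, 1155 and 906 CPM in sgNF2-1. Its groups overlapped, and a log2 fold change of 0.27 did not pass the test (edgeR adjusted p = 0.062).

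Complex IV, cytochrome c oxidase, reduces oxygen to water, and its 3 catalytic core subunits are encoded here. MT-CO1 (ENSG00000198804, chrM:5904-7445, plus strand) was the most counted messenger RNA, at 7750, 8825 and 10396 CPM in sgCtrl and 9130, 11840 and 10091 CPM in sgNF2-1. The groups overlapped, and its log2 fold change of 0.20 (standard error 0.11) did not pass the test (edgeR adjusted p = 0.17). MT-CO2 had 2271, 2672 and 3192 CPM in sgCtrl and 3226, 4062 and 3696 CPM in sgNF2-1. These groups did not overlap, by the narrow margin between sgCtrl 3 and sgNF2-1 1, and the log2 fold change was 0.43 (standard error 0.11, edgeR adjusted p = 0.0033). MT-CO3 lay between 2630 and 3868 CPM in sgCtrl and between 3862 and 4770 CPM in sgNF2-1, so the groups just overlapped, and it rose by a log2 fold change of 0.44 (edgeR adjusted p = 0.0042).

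ATP synthase makes ATP from the proton gradient, and 2 of its membrane subunits are encoded by the overlapping pair shown above. MT-ATP6 ranged from 1315 to 2008 CPM in sgCtrl and from 1876 to 2561 CPM in sgNF2-1, a log2 fold change of 0.41 (edgeR adjusted p = 0.011). MT-ATP8 had 76, 124 and 91 counts in sgCtrl and 110, 142 and 135 in sgNF2-1, against 20763 to 39587 counts for MT-ATP6. A log2 fold change of 0.43 with a standard error of 0.20 did not pass the test for MT-ATP8 (edgeR adjusted p = 0.092). Both are read from 1 shared messenger RNA in human mitochondria, so the low count of MT-ATP8 is no measure of that transcript.

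**Figure D2:**
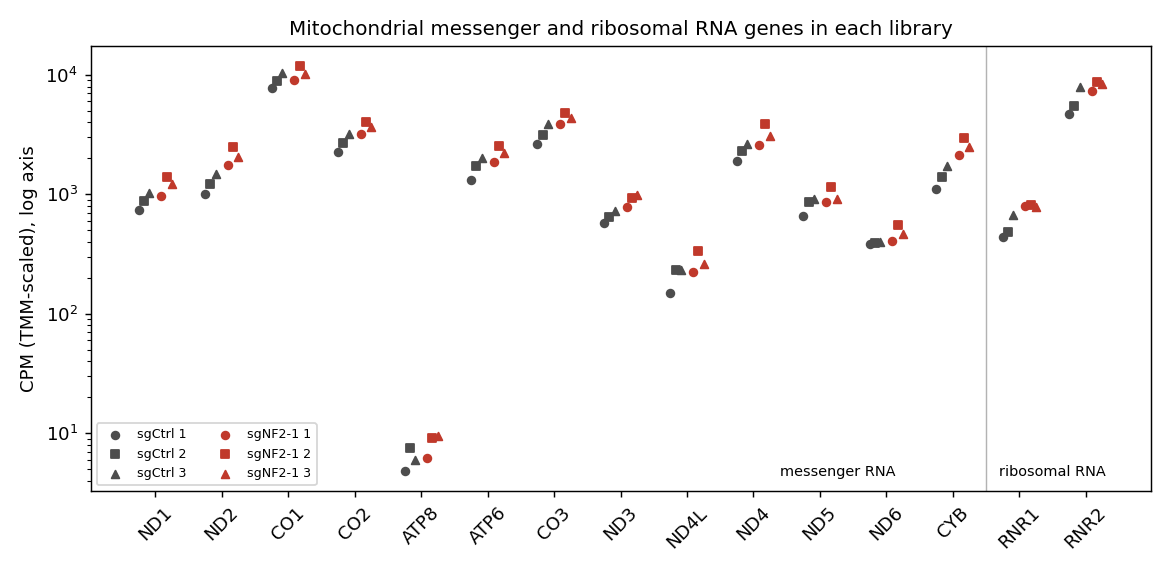
CPM (log axis) of the 13 messenger RNA genes in genome order and the 2 ribosomal RNA genes; the shape of a symbol is the library number and the color the group. sgCtrl 1 is the lowest symbol for each of the 13 messenger RNAs, and MT-ATP8 lies far below the rest.

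Grouped by their annotated 3' ends, the 6 genes whose sequence stops short of a full codon (MT-ND1, MT-ND2, MT-CO3, MT-ND3, MT-ND4 and MT-CYB) were all called higher. Their log2 fold changes ran from 0.43 to 0.83 with a median of 0.47. Of the 7 annotated to end on a full codon, 4 were called, and 17.7% of all tested genes were called higher. The log2 fold changes of these 7 ran from 0.20 to 0.43 with a median of 0.41. MT-ATP6, with a log2 fold change of 0.41 and a call, is among these, although it shares its last base with MT-CO3. Its place in the grouping rests on the annotation. This grouping was not among the planned comparisons. It describes 13 genes that moved together across the libraries, and it was not tested.

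Levels per length were compared with the deposited FPKM values. In sgCtrl the order was MT-CO1 with 5534 FPKM, MT-CO3 with 3881, MT-CO2 with 3763, MT-ATP6 with 2340, MT-ND3 with 1784, MT-ND4 with 1572, MT-CYB with 1179, MT-ND2 with 1120, MT-ND1 with 877, MT-ND6 with 708, MT-ND4L with 657, MT-ND5 with 423 and MT-ATP8 with 28.0. The ranges of neighbors over the 3 sgCtrl libraries did not overlap at 5 places, below MT-CO1, MT-CO2, MT-ND1, MT-ND4L and MT-ND5. Within each of the 3 libraries the order held at 11 of the 12 places, and the exception was MT-ND6 and MT-ND4L. The complex IV genes stood above the complex I genes in level, whereas MT-CYB and MT-ND2, in the middle of this order, had the largest fold changes. On the log2(FPKM + 1) scale, limma called 3 of the 13 messenger RNAs higher, MT-CYB, MT-ND2 and MT-ND3 (differences of 0.83, 0.76 and 0.46, adjusted p = 0.016, 0.018 and 0.043), where it called 14.3% of 13038 genes higher. All 3 were among the 5 genes that DESeq2 called.

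Scaling each library to the mean of its own 13 messenger RNAs shows how the genes moved against each other, free of the library scaling. MT-CYB gained 0.39 (log2, standard error 0.059) and MT-ND2 0.32 (standard error 0.045) relative to the 13, while MT-CO1 lost ground, with a difference of -0.25 (standard error 0.047), and so did MT-ND5, with -0.18 (standard error 0.063). The relative level of MT-CYB was 0.66, 0.69 and 0.84 in sgCtrl and 1.12, 1.15 and 1.09 in sgNF2-1, and that of MT-CO1 was 3.47, 3.34 and 3.42 in sgCtrl and 3.22, 3.15 and 3.12 in sgNF2-1. For these 4 genes the groups did not overlap, and for the other 9 they did, with differences from -0.19 to 0.01. Each of the 4 reached the smallest p of the design (two-sided exact permutation test, p = 0.1, 0.325 after Benjamini-Hochberg adjustment over the 13), so none passed 0.05. MT-ND2 is itself the middle gene of the 13 by counts in every library, and with that median as the reference its difference is 0 by construction and that of MT-CYB is 0.06. The other 11 genes then had differences below 0, from -0.31 for MT-ND3 and MT-ND4 to -0.50 for MT-ND5, -0.51 for MT-ND6 and -0.57 for MT-CO1, so the sign and size of a relative value depend on the reference.

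**Figure D3:**
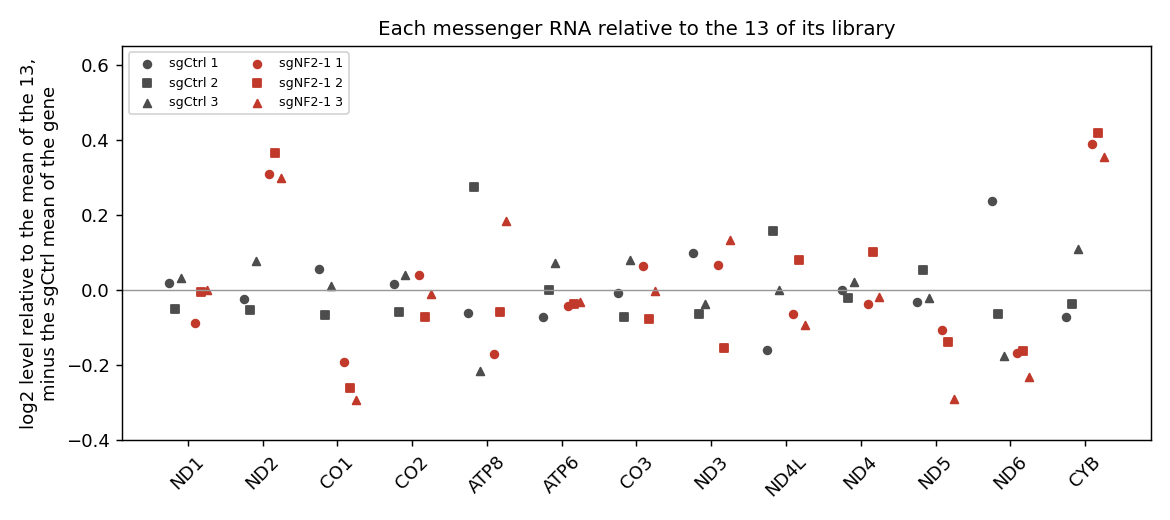
For each messenger RNA gene, the log2 count relative to the mean of the 13 genes in the same library, minus the gene's sgCtrl mean (vertical axis), in all 6 libraries. MT-ND2 and MT-CYB sit above all sgCtrl libraries in sgNF2-1, MT-CO1 and MT-ND5 below them, and the other genes overlap around 0.

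Log2 ratios of counts were compared for 5 pairs of genes or classes, and the groups overlapped in each of them. The log2 ratio of MT-ND4L to MT-ND4 was -3.49 ± 0.170 (SD, n = 3) in sgCtrl and -3.53 ± 0.0286 in sgNF2-1 (exact permutation p = 0.8). MT-ATP8 to MT-ATP6 was -8.10 ± 0.281 and -8.08 ± 0.176 (SD, n = 3, exact permutation p = 1). MT-ND6, from the minus strand, relative to the mean of the 12 plus-strand messenger RNAs was -1.19 ± 0.231 in sgCtrl and -1.40 ± 0.0421 in sgNF2-1 (SD, n = 3, exact permutation p = 0.3). Ribosomal relative to messenger RNA was -1.92 ± 0.154 and -1.84 ± 0.0960 (SD, n = 3, exact permutation p = 0.4).

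Both ribosomal RNA genes were called higher, beside 17.7% of all tested genes. MT-RNR1 encodes the 12S RNA of the small mitochondrial ribosomal subunit (ENSG00000211459, chrM:648-1601, plus strand). Its level was 439, 481 and 667 CPM in sgCtrl and 799, 822 and 786 CPM in sgNF2-1, with no overlap. This is a log2 fold change of 0.60 (edgeR adjusted p = 0.00013, standard error 0.11). MT-RNR2 encodes the 16S RNA of the large subunit (ENSG00000210082, chrM:1671-3229, plus strand) and had 4714, 5477 and 7888 CPM in sgCtrl and 7320, 8748 and 8455 CPM in sgNF2-1. Here sgCtrl 3 exceeded sgNF2-1 1, and the log2 fold change was 0.44 (standard error 0.13, edgeR adjusted p = 0.011).

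Of the pair, MT-RNR1 kept its call whichever library was left out, whereas MT-RNR2 lost it without sgCtrl 1 or sgCtrl 2 (edgeR adjusted p = 0.092 and 0.053). DESeq2 called only MT-RNR1 (adjusted p = 0.0091, against 0.17 for MT-RNR2). The log2 ratio of MT-RNR2 to MT-RNR1 was 3.50 ± 0.0704 in sgCtrl and 3.34 ± 0.129 in sgNF2-1 (SD, n = 3), which overlapped (exact permutation p = 0.2), so the pair was not shown to change unequally.

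The 22 transfer RNA genes are 59 to 75 bases long, shorter than the 150-base reads, and 12 of them had too few counts to be tested, at most 13 in any library. Of the 22, 14 abut a messenger or ribosomal RNA gene with no gap. A count on a transfer RNA gene cannot tell the transfer RNA from a longer transcript that spans it. The 22 genes lie on both strands, 14 on the plus and 8 on the minus strand. The minus-strand genes held 92.8 to 94.2% of all transfer RNA counts in each library, mainly on MT-TN, MT-TC, MT-TP and MT-TY. Whether counting used strand is not given. Without strand, these counts can include reads from the plus strand, so the percentage is no measure of minus-strand transfer RNAs. The sequences of the 4 called genes and of MT-TP, the other abundant one, are shown 5′ to 3′ on the strand of the gene with the anticodon in capitals. MT-TN (asparagine, chrM:5657-5729), MT-TC (cysteine, chrM:5761-5826), MT-TY (tyrosine, chrM:5826-5891) and MT-TP (proline, chrM:15956-16023) are on the minus strand, and MT-TT (threonine, chrM:15888-15953), which directly follows MT-CYB, is on the plus strand.
MT-TN: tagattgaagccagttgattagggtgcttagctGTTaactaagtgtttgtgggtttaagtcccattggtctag
MT-TC: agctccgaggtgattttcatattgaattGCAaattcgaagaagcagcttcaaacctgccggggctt
MT-TY: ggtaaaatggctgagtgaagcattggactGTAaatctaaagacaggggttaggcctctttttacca
MT-TT: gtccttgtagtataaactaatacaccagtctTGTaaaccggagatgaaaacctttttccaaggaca
MT-TP: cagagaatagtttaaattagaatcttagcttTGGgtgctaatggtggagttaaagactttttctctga
MT-TN, MT-TC and MT-TY stand side by side, with 31 bases between MT-TN and MT-TC, the region of the light-strand replication origin, and a shared base between MT-TC and MT-TY.

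Among the 10 transfer RNA genes tested, 4 were called higher, where 17.7% of all tested genes were, and 0 lower, where 16.6% were, in edgeR's test. There were also 0 lower at an unadjusted p under 0.05 and 0 by DESeq2. Of the 10, 7 had a fold change above 0. MT-TN had 108, 137 and 150.5 CPM in sgCtrl and 155, 159 and 186 CPM in sgNF2-1 without overlap, a log2 fold change of 0.34 (standard error 0.10, edgeR adjusted p = 0.012). MT-TC had 78.0, 95.8 and 135 CPM in sgCtrl and 127, 146 and 145 CPM in sgNF2-1, with sgCtrl 3 above sgNF2-1 1 and a log2 fold change of 0.44 (edgeR adjusted p = 0.0086). MT-TT, with 81 to 190 counts, rose by a log2 fold change of 0.62 (standard error 0.19, edgeR adjusted p = 0.014), and MT-TY by 0.37 (edgeR adjusted p = 0.049), both with overlapping groups. MT-TT follows MT-CYB with no gap, and whether its counts are reads of a transcript with MT-CYB was not tested. Only MT-TN of the 4 was separated between the groups, and it lost its call without sgCtrl 1 or sgNF2-1 3 (edgeR adjusted p = 0.11 and 0.075). MT-TT lost it without sgCtrl 1 or sgNF2-1 2, MT-TC without sgCtrl 1, and MT-TY was called in 6 of 14 alternatives.

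The 6 tested transfer RNA genes without a call were MT-TL1, MT-TP, MT-TE, MT-TV, MT-TR and MT-TH, with log2 fold changes of 0.35, 0.31, 0.10, -0.27, -0.29 and -0.30 (edgeR adjusted p from 0.16 to 0.85). Without sgCtrl 1, 0 transfer RNA genes were called by edgeR, with 3 at an unadjusted p under 0.05, and without sgNF2-1 2 the number was 2. The FPKM test by limma called a single transfer RNA gene, MT-TK, which was listed at 0 in the 3 sgCtrl libraries and had 2, 2 and 3 counts in sgNF2-1. These counts do not exceed the 3 that a count of 0 allows, and edgeR's filter left the gene out. The filter also left out MT-TI and MT-TD, with at most 12 counts, whose CPM was lower in every sgNF2-1 library than in every sgCtrl library. Their limma differences were -0.94 and -1.81 (adjusted p = 0.056 and 0.076). With no filter on low counts, edgeR had 1 transfer RNA gene lower at an unadjusted p under 0.05.

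**Figure D4:**
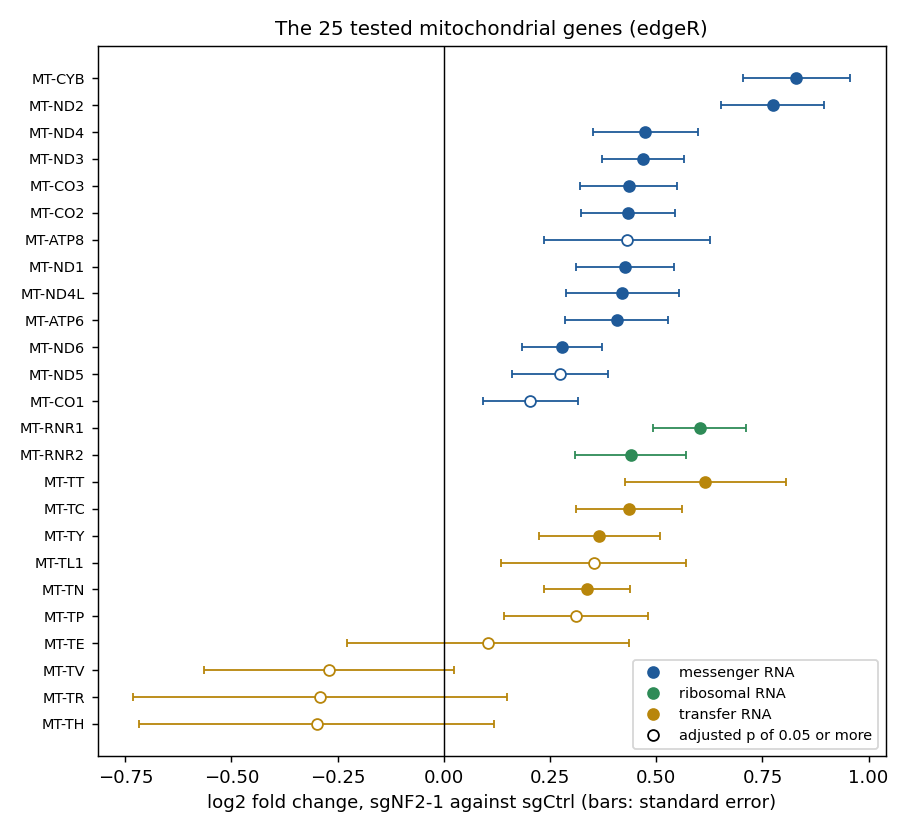
Log2 fold change of sgNF2-1 against sgCtrl with its standard error for the 25 mitochondrial genes that edgeR tested, by class. Filled symbols have an adjusted p under 0.05; the messenger RNAs run from 0.20 for MT-CO1 to 0.83 for MT-CYB, and the transfer RNAs spread from -0.30 to 0.62.

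The nuclear genome holds copies of mitochondrial sequence that can share reads with the genes above. The table lists 407 such pseudogenes, of which 351 had 0 counts in every library and 3 had a mean of at least 10. These 3 lie close together on chromosome 1. MTND2P28 (chr1:629640-630683) matches MT-ND2 at 98.4% of aligned bases and had 798, 1383 and 1298 counts in sgCtrl and 1748, 2132 and 1741 in sgNF2-1. The copy had a log2 fold change of 0.71 (standard error 0.14, edgeR adjusted p = 0.00027), beside 0.77 for MT-ND2, and its counts amounted to 5.07 to 6.94% of those on MT-ND2. Whether these are reads of MT-ND2 cannot be told apart from counts alone.

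The other copies did not pass the test. MTATP6P1 (chr1:633696-634376, 98.5% identical to MT-ATP6) had a log2 fold change of 0.01 (edgeR adjusted p = 0.96), and its counts were 3.77 to 6.94% of those on MT-ATP6 in sgCtrl and 3.63 to 4.23% in sgNF2-1. MTCO1P12 (chr1:631074-632616, 98.7% identical to MT-CO1) had a log2 fold change of -0.15 (edgeR adjusted p = 0.48). With the counts of these copies, and of the lower MTND1P23 and MTCO3P12, added to the mitochondrial gene each matches, 10 messenger RNAs were again called higher, and MT-ND2 kept a log2 fold change of 0.77.

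The nuclear genes that copy and process the mitochondrial genome were read from a list of 56 symbols, of which 54 matched the table and 53 were tested. The unmatched symbols, PRORP and FASTKD4, are other names of KIAA0391 and TBRG4, which matched, so no listed gene is missing. edgeR called 19 of the 53 higher and 2 lower, and their median log2 fold change was 0.18. Over all tested genes, 17.7% were called higher and 16.6% lower. POLRMT, the mitochondrial RNA polymerase, had 1672, 1704 and 1497 counts in sgCtrl and 2365, 2230 and 2127 in sgNF2-1, without overlap. The difference on the log2 scale was 0.47 (standard error 0.08, edgeR adjusted p = 6.6e-05).

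Of the 10 genes listed under transcription, 4 were called higher and 1 lower, where 17.7% and 16.6% of all tested genes were. TFB2M, which opens the promoter with the polymerase, rose by a log2 fold change of 0.45 (edgeR adjusted p = 0.0033), TFB1M, a 12S RNA methyltransferase, by 0.65 (adjusted p = 7e-05 from edgeR), and MRPL12, a large-subunit ribosomal protein, by 0.55 (adjusted p = 0.0023). MTERF2, of the mitochondrial termination factor family, fell by 0.64 on the log2 scale (edgeR adjusted p = 0.013). TFAM, which packages and bends the DNA, had a log2 fold change of 0.12 and the elongation factor TEFM 0.19, and neither passed the test (edgeR adjusted p = 0.35 and 0.56).

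Of the 8 replication genes, 2 were called, both higher, beside 17.7% of all tested genes called higher, so this count is no result about replication genes as a group. TWNK, the replicative helicase, had 416, 380 and 399 counts in sgCtrl and 820, 713 and 705 in sgNF2-1, a log2 fold change of 0.91 (standard error 0.10, edgeR adjusted p = 1.4e-07), the largest on the list. TOP1MT, the mitochondrial topoisomerase, rose by 0.52 (edgeR adjusted p = 0.0076). POLG, the DNA polymerase, had a log2 fold change of -0.06 that did not pass the test (edgeR adjusted p = 0.62).

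Of 29 RNA processing, modification and decay genes, 10 were called higher and 1 lower, where 17.7% and 16.6% of all tested genes were. Those past a log2 fold change of 0.5 were PUS1, a pseudouridine synthase, with 0.74, SUPV3L1, the helicase of the RNA degradosome, with 0.73, MRM1, a 16S RNA methyltransferase, with 0.69, and MRM3, another of these, with 0.54 (edgeR adjusted p = 4.1e-06, 1.2e-06, 0.00075 and 0.0018). FASTKD5 was the gene called lower, with a log2 fold change of -0.37 (edgeR adjusted p = 0.010). PNPT1, the exonuclease partner of SUPV3L1, had a log2 fold change of 0.18 and did not pass (edgeR adjusted p = 0.11). LRPPRC and SLIRP, which together bind and stabilize the messenger RNAs, had log2 fold changes of 0.12 and 0.03 (edgeR adjusted p = 0.24 and 0.90), and ELAC2, which cuts the 3' ends of transfer RNAs, had 0.12 (adjusted p = 0.28).

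Of the 8 regulators of mitochondrial gene expression listed, 7 were tested and 4 rose, namely GABPB1, ESRRA, PPRC1 and TFB1M, which is also counted above. Over all tested genes, 17.7% were called higher. GABPB1, a subunit of the nuclear respiratory factor NRF-2, rose by a log2 fold change of 0.51 (edgeR adjusted p = 0.0030), ESRRA by 0.29 and PPRC1 by 0.29 (edgeR adjusted p = 0.020 and 0.017). PPARGC1A, the coactivator PGC-1α, had at most 2 counts in any library and was not tested. NRF1 had a log2 fold change of 0.30 that did not pass the test (edgeR adjusted p = 0.056).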

How the data were processed

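RNA from 3 sgCtrl and 3 sgNF2-1 libraries of H2452 cells was prepared with a NEBNext Ultra RNA kit and sequenced as 150-base paired-end reads. The submitters' processing notes name HISAT2, StringTie 1.3.3b, featureCounts 1.5.0-p3 and hg38, without their roles. Whether poly(A) RNA was selected, whether counting used strand and how reads with several matches were treated is not given in the sources used here. Without strand, reads from a gene and from the opposite strand cannot be told apart. Each gene's raw read count, without normalization, and its FPKM value are as deposited by the authors. These columns carry the group and replicate number.

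The total count was 14782423 to 17416463 per library. Counts were filtered with edgeR 4.0.16 (filterByExpr, minimum count 10, minimum total 15; 14179 genes), scaled by TMM and fitted with the quasi-likelihood model of the group, in R 4.3.3, with Benjamini-Hochberg adjustment over all tested genes. FPKM values were tested with limma 3.58.1 on log2(FPKM + 1) where the mean FPKM was 0.5 or more. Such fold changes understate those of low genes. Shares, ratios and relative levels were compared by two-sided exact permutation tests (scipy 1.17.1). Nuclear copies were aligned to the mitochondrial genes with Biopython 1.88.

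The members and lists were chosen with earlier results of these data known. The named genes are the 37 members, NF2, listed nuclear genes past an adjusted p of 0.05 and a log2 fold change of 0.5, POLRMT, TFAM, TFB2M, TEFM, LRPPRC, SLIRP, nuclear copies with a mean of at least 10 counts, and 5 RNAs without a poly(A) tail. Other nuclear genes were named after their values were seen. On simulated counts with the means of these libraries, edgeR recovered 51.0% of genes changed by a log2 fold of 0.5 and 78.1% of those changed by 1, and called 13 of 13942 unchanged genes. At a log2 fold of 0.5, DESeq2 recovered 47% and limma, on FPKM from the simulated counts, 19.3%. The simulation changed far fewer genes than were called in these data and drew each gene independently. These rates therefore need not hold for the mitochondrial genes. DESeq2 1.42.0 and other settings were tried as alternatives.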

Additional observations from a re-analysis of the deposited data

How the results depend on the processing

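The direction of the messenger and ribosomal RNA calls held in every setting tried, since 0 genes of either class, and 0 transfer RNA genes, were called lower in any, but the number of calls did not. Messenger RNA genes called higher fell from 10 to 5 with DESeq2, to 2 with the unadjusted p and fold limit and to 3 with limma on FPKM, a setting added after the data were seen like that of the nuclear copies. Leaving out 1 library gave 5 to 12, with 6 without sgCtrl 1 and 5 without sgNF2-1 2. Ribosomal RNA calls fell from 2 to 1 with DESeq2 and with the fold limit, and ranged from 1 to 2 when a library was left out. Transfer RNA calls fell from 4 to 2 with DESeq2 and 1 with the fold limit, and ranged from 0 to 5. The nuclear list fell to 9 higher and 1 lower with the fold limit, and leaving out 1 library gave 14 to 18 higher and 1 to 2 lower. The limma count of 3 went to 0 without a filter on low FPKM (2 at an unadjusted p under 0.05) and ranged from 0 to 4 when a library was left out. The cause was not tested. MT-CYB, MT-ND2, MT-ND3, MT-CO2 and MT-RNR1 were called in all 14 alternatives tried for single genes with edgeR or DESeq2, and the log2 fold changes of the 13 messenger RNAs stayed above 0 in each.

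Over all tested genes, the replicate numbers showed no clear pairing of the libraries. Deviations of same-numbered libraries correlated at -0.038, 0.071 and 0.059, and all correlations lay between -0.13 and 0.079. sgCtrl 2 correlated best with sgNF2-1 1 (0.079) and sgCtrl 1 with sgNF2-1 3, while sgCtrl 3 correlated best with its same-numbered sgNF2-1 3. For the mitochondrial genes alone, library 1 had the lowest share of counts in both groups (2.65% in sgCtrl and 3.67% in sgNF2-1). With the replicate block, edgeR called 12 messenger, 2 ribosomal and 5 transfer RNA genes higher, and limma called 10 messenger RNAs in place of 3.

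Differences near 0 changed sign when 1 library was left out. The MT-ND4L to MT-ND4 ratio difference ranged from -0.12 to 0.050, that of MT-ATP8 to MT-ATP6 from -0.12 to 0.16, and the log2 fold change of MT-TE from -0.15 to 0.33. Relative to the 13, the ranges were -0.043 to 0.016 for MT-CO2, -0.12 to 0.12 for MT-ATP8, -0.042 to 0.034 for MT-CO3, -0.044 to 0.099 for MT-ND3, -0.11 to 0.054 for MT-ND4L and -0.028 to 0.041 for MT-ND4. With the median as the reference MT-ND2 moved to 0, by construction, and MT-ND3 and MT-ND4 to -0.31 each. MT-ATP8 had 76 to 142 counts in a library and the 12 untested transfer RNA genes at most 13, which limits the precision there.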

Other observations

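The nuclear partners of the mitochondrial gene products were read by symbol pattern, a choice made after the values of the mitochondrial genes were seen. Of 78 tested nuclear subunits of the respiratory chain and ATP synthase, edgeR's quasi-likelihood test called 5 higher and 8 lower in sgNF2-1, where it called 17.7% of all tested genes higher and 16.6% lower, and their median log2 fold change was -0.03. This stands beside 0.43 for the 13 mitochondrially encoded messenger RNAs, and the difference between the lists was not tested. The 5 higher were CYC1, cytochrome c1 of complex III, with a log2 fold change of 0.49, NDUFS7 with 0.37, NDUFV1 with 0.32, ATP5F1D with 0.30 and NDUFB9 with 0.26 (edgeR adjusted p from 0.00027 to 0.029). The 8 lower included COX7B, a small complex IV subunit, with a log2 fold change of -0.52, and NDUFB3 and NDUFA2, accessory subunits of complex I, with -0.52 and -0.46 (edgeR adjusted p = 0.00048, 0.0028 and 0.0042).

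The mitochondrial ribosomal proteins, which join the 2 ribosomal RNAs in the ribosome of the organelle, were read in the same way. Of 78 tested, edgeR called 31 higher, beside 17.7% of all tested genes, and 1, MRPL51, lower (log2 fold change -0.28, edgeR adjusted p = 0.020), with a median of 0.21. The 31 include MRPL12, which is also counted among the genes listed under transcription above. MRPL15 had the largest log2 fold change, 0.96 (standard error 0.11), and the small-subunit proteins MRPS31 and MRPS2 had 0.78 each (edgeR adjusted p = 1.2e-07, 1.4e-05 and 1.6e-07).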
